A study of Mus musculus with 6 samples.

Results

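Gene expression in the infarcted mouse heart was compared between mice that carried a reprogramming transgene (12W-TTg) and their controls (12W-Ctrl), 3 months after the left coronary artery had been ligated. The comparison rests on 4 of the 6 arrays of the series, 2 hearts in each group and 1 Clariom S mouse array per heart. The members described are all 19572 array features that carry 1 gene symbol, which stand for 19505 different symbols, out of 22206 features in all. The remaining pair of arrays (8W-Ctrl), from control hearts taken 2 months after infarction, served only to estimate the spread between hearts.

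Both groups carried Tcf21iCre, a Cre recombinase driven by Tcf21, and a Tomato reporter. The 12W-TTg mice carried MGTH2A in addition, a transgene for Mef2c, Gata4, Tbx5 and Hand2. All mice were male, were 8 weeks old at surgery and gave the whole heart, and mice whose ejection fraction stayed above 45% at 2 days were removed from the study. The Cre confines the transgene to cells that express Tcf21 or descend from such cells, which in the heart are mainly fibroblasts. The time at which the Cre was induced is not given in the labels used here. The infarct and the surviving muscle were not separated, so each value is a mean over scar, border and remote heart.

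Mef2c, Gata4, Tbx5 and Hand2 are transcription factors that act together when the heart forms. When they are supplied to fibroblasts, some of these cells take up a cardiomyocyte-like state and lose part of their fibroblast program, which is called direct cardiac reprogramming. After an infarction, resident fibroblasts become activated, lay down a collagen scar and are sustained by transforming growth factor beta, mechanical load and signals from macrophages, while the surviving cardiomyocytes return in part to a fetal pattern of contractile and metabolic genes.

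The arrays of the comparison were alike as a whole and differed in how near they lay to each other. Array medians lay between 4.91 and 5.0 on the log2 scale. The 2 Ctrl hearts correlated across features at 0.9863 and the 2 TTg hearts at 0.9891, but Ctrl replicate 2 was closer to both TTg hearts (0.9893 and 0.9878) than to its own group. Ctrl replicate 1 stood apart, at 0.9809 and 0.9766 with the TTg hearts. The 10 measured ventricular cardiomyocyte markers had means of 18.58 and 18.95 in Ctrl and 18.81 and 18.68 in TTg, so the label of heart tissue was borne out in all 4 arrays. Because of the distance of Ctrl replicate 1, results on gene families are also given against each control heart alone.

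Differences below are TTg minus Ctrl, in log2 units, with the SE of the difference from limma's fit and n = 2 arrays per group. Of 22206 features, 1 passed an adjusted p under 0.05, 0.0045% of them, and it was lower in TTg. The passing gene was Jchain. In limma's fit 0 features passed in the higher direction, where 745 (3.35%) had an unadjusted p under 0.05, against 913 (4.11%) in the lower direction. With a difference of at least 1 log2 unit besides, 222 features (1%) were higher and 444 (2%) lower. These counts depended on the control heart: without Ctrl replicate 1 they were 147 and 203, and without Ctrl replicate 2 they were 648 and 921. Apart from Jchain, every gene named below had an adjusted p of 0.578 or more, and its values are given as a description. A p that misses the threshold does not show that 2 groups are alike.

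**Figure D1:**
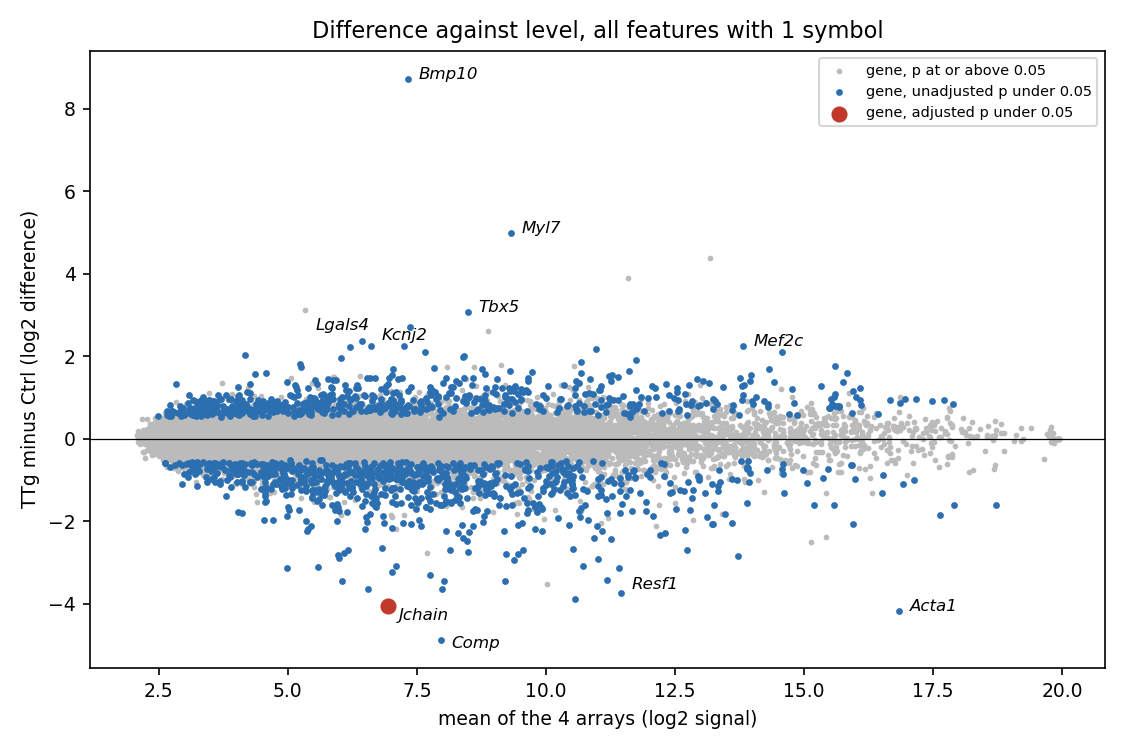
The difference between TTg and Ctrl (vertical axis, log2 units) is plotted against the mean over the 4 arrays (horizontal axis, log2 signal) for every feature with 1 symbol. A chosen set of genes is labelled, and some genes with wide differences, such as Myl4 at 4.39, are not. Most points lie near 0, with a middle of 0.01 and quartiles of −0.23 and 0.23, and Bmp10 at 8.73 and Comp at −4.88 are the far ends of the labelled genes.

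Jchain encodes the joining chain that links IgA and IgM antibodies into polymers and is made by plasma cells. Its signal was 9.07 and 8.87 in Ctrl and 4.75 and 5.08 in TTg. Both TTg hearts were far below both Ctrl hearts, and the replicates of each group lay close together. Jchain fell by 4.05 (SE 0.27, n = 2 per group), which is 16.6-fold lower, with an adjusted p of 0.0278. In bulk tissue, fewer cells of a type and less RNA per cell cannot be told apart. Among the 7 measured markers of B and plasma cells, Jchain among them, 5 were lower and 2 higher. Their mean, which holds the Jchain values, was 5.68 and 5.70 in Ctrl and 4.96 and 4.90 in TTg, while their median difference was −0.30. Cd79a, Derl3, Ms4a1 and Mzb1 lay below the dim limit of 3.65, the 30th percentile of mean signal. Under that level background signal sets how wide a difference appears. Of the markers above it, besides Jchain, Xbp1 was at 0.03 and Cd79b at −0.30. The part of B and plasma cells in the Jchain result was not tested. The call ended without Ctrl replicate 1, Ctrl replicate 2, TTg replicate 1 or TTg replicate 2, and the adjusted p ranged from 0.00944 to 0.254 over 14 alternatives.

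The 4 supplied factors were measured together with the other members of their gene families, which the transgene does not encode. The family counts and medians include the supplied factors. Tbx5 read 6.42 and 7.47 in Ctrl and 10.72 and 9.31 in TTg, a difference of 3.07 ± 0.52. It stood out among the 15 measured T-box factors, whose median difference was 0.00. Tbx2, which represses chamber genes in the atrioventricular canal, was at 0.66, and Tbx15 at −0.84. Mef2c read 12.52 and 12.87 in Ctrl and 15.93 and 13.94 in TTg (2.24 ± 0.58). The 24 GATA, MEF2, HAND and NK homeobox factors, with Mef2c, Gata4 and Hand2 among them, had a median of 0.11. Hand2 was at 8.01 and 7.57 in Ctrl against 9.40 and 8.13 in TTg (0.98 ± 0.44). For Tbx5, Mef2c and Hand2 the groups did not overlap, and TTg replicate 1 was above TTg replicate 2. Gata4 overlapped between the groups, at 13.22 and 13.75 in Ctrl and 14.05 and 13.43 in TTg (0.25 ± 0.31), and its sign turned to −0.01 without Ctrl replicate 1 and to −0.05 without TTg replicate 1. The array does not separate transgene transcripts from those of the endogenous genes.

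The widest differences upward were in genes known from the atrium. Bmp10, a growth factor of the BMP family that the adult mouse makes mainly in the right atrium, read 2.87 and 3.04 in Ctrl and 11.92 and 11.46 in TTg. Both Ctrl values lie below the dim limit, so the difference of 8.73 ± 1.21 depends on the background there. The spread estimate of this gene was widened by the control hearts taken at 2 months, which read 2.40 and 6.88. It passed at an adjusted p of 0.000987 when the 4 arrays were fitted alone. Myl7, the regulatory myosin light chain of the atrium, read 10.21 and 3.45 in Ctrl and 12.39 and 11.24 in TTg (4.99 ± 1.83). The 2 Ctrl hearts were far apart, and the difference ranged from 1.60 to 8.37 over the alternatives. Over the 7 measured atrial cardiomyocyte markers, which include both Bmp10 and Myl7, 5 were higher and 2 lower. Their mean was 11.74 and 7.66 in Ctrl and 13.41 and 12.32 in TTg. It holds the values of Bmp10 and Myl7 and is no separate support for them. Sln, the atrial inhibitor of the calcium pump, and Myl4, the atrial essential light chain, were at 3.89 and 4.39, with overlap between the groups. Over the alternatives Sln ranged from −0.24 to 8.02 and Myl4 from −0.70 to 9.48. The 2 lower markers were Nppa at −0.50 and Dkk3 at −1.01, and Dkk3 ranged from −2.82 to 0.80. How much atrial tissue each whole heart sample held is not given in the labels, and its part in these values was not tested.

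**Figure D2:**
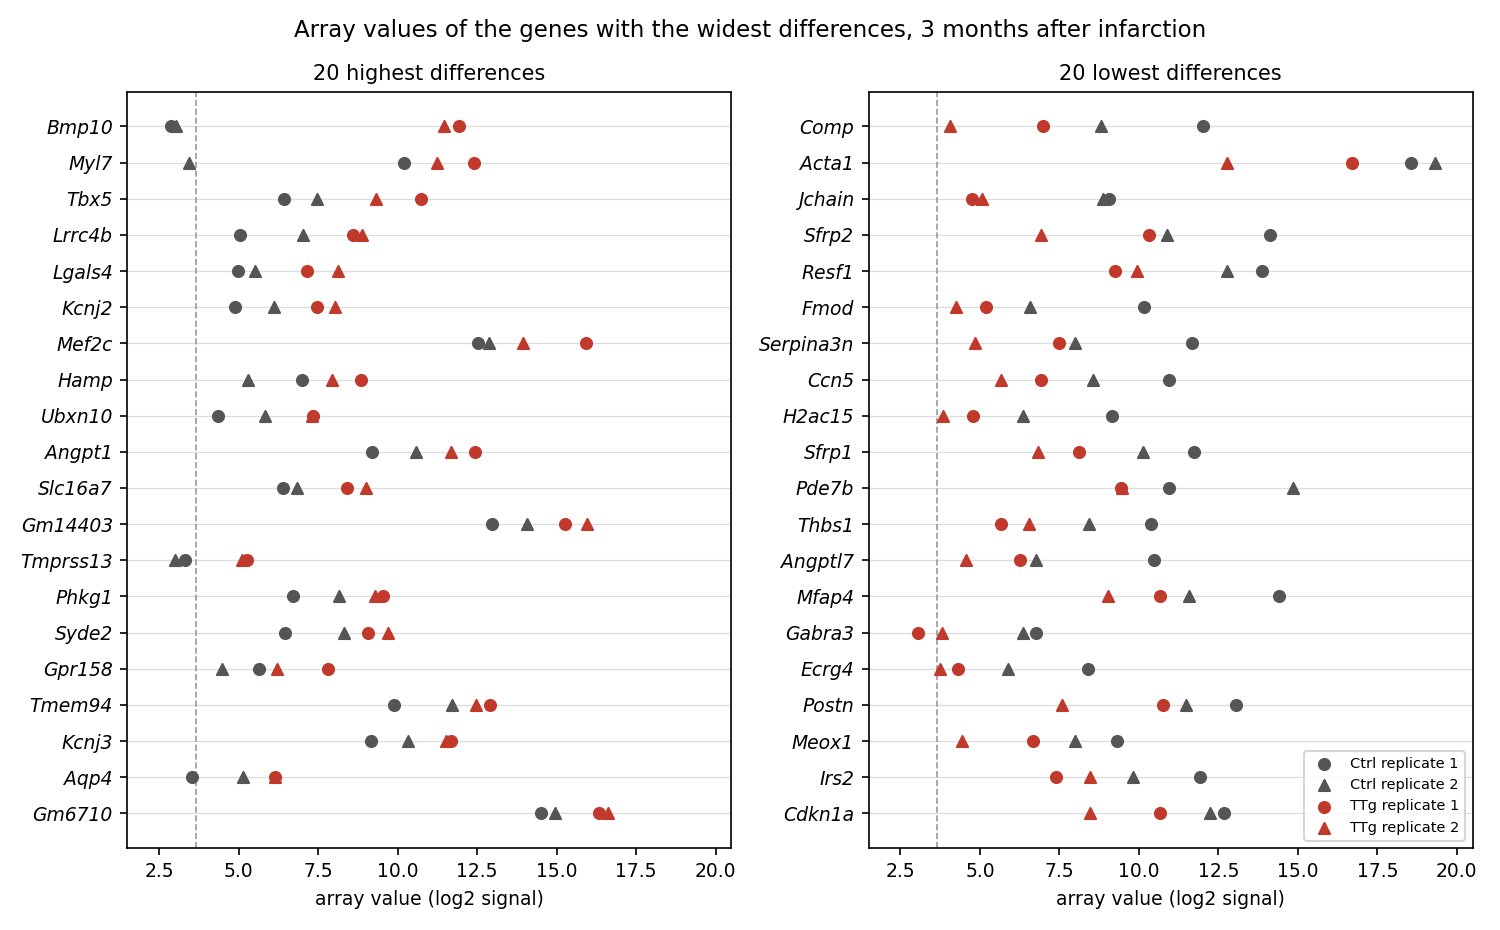
Log2 signal (horizontal axis) is plotted on each of the 4 arrays for the genes with the widest differences, 1 gene per line, with Ctrl and TTg in different colours. The dashed vertical line is the dim limit of 3.65. Bmp10 lies left of that line in both Ctrl hearts and right of 11 in both TTg hearts, and the 2 Ctrl values of Myl7 lie far apart.

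Ion channels of the heart gave single genes on either side of 0. Kcnj2, which encodes the Kir2.1 channel that holds the resting potential, read 4.88 and 6.10 in Ctrl and 7.45 and 8.03 in TTg (2.25 ± 0.52). Kcnj3, a subunit of the potassium channel opened by acetylcholine, read 9.16 and 10.33 in Ctrl and 11.68 and 11.51 in TTg (1.85 ± 0.46). Its partner subunit Kcnj5, chosen after its values were seen, was at 8.97 and 9.10 against 9.79 and 10.22 (0.97 ± 0.27). Chrm2, the muscarinic receptor that opens this channel, had a difference of 0.91 ± 0.27, from 8.29 and 8.42 in Ctrl to 9.31 and 9.22 in TTg. Kcnh2, the subunit of the rapid delayed rectifier, was at 1.39. In all 5 of these genes both TTg hearts were above both Ctrl hearts, which the rule that named them required except for Kcnj5. The 4 channel genes stood apart from the 88 measured potassium channel subunits, of which 40 were higher and 47 lower, with a median of −0.01. Kcnk6, a leak channel subunit, lay the other way at −1.05, as did the sodium channel subunit Scn7a at −1.36. Of the 88 potassium channel subunits, 7 had an unadjusted p under 0.05 in the higher direction and 1 in the lower, against 3.24% and 4.29% of all features with 1 symbol. The 24 calcium channel subunits had a median of 0.12, with none at an unadjusted p under 0.05.

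Promoter sequences are shown for 4 genes of these results, to give the letters around their starts. The 4 genes were not chosen by rank or at random. Lrrc4b at 2.70 and Lgals4 at 2.38 differed more than Kcnj2 at 2.25, and their windows held no match to any motif searched. Each window runs from 250 bases before to 50 after the RefSeq gene start on GRCm38.p6, 5′ to 3′ on the strand of the gene, and capitals mark matches to the motifs searched. Bmp10 is at chr6:87428744-87429043 (plus strand), Myl7 at chr11:5898733-5899032 (minus strand), Kcnj2 at chr11:111065914-111066213 (plus strand) and Jchain at chr5:88527848-88528147 (minus strand).
Bmp10: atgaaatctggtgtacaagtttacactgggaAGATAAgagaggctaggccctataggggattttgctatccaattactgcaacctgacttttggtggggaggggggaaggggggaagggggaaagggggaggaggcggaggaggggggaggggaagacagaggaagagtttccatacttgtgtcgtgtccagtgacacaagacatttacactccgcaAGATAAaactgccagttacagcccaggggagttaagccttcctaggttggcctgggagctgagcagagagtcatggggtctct
Myl7: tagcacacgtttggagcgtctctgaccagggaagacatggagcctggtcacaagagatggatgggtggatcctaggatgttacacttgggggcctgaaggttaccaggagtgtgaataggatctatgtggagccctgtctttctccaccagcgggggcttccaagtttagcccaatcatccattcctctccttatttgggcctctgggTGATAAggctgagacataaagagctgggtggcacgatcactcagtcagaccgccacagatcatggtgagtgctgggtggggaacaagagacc
Kcnj2: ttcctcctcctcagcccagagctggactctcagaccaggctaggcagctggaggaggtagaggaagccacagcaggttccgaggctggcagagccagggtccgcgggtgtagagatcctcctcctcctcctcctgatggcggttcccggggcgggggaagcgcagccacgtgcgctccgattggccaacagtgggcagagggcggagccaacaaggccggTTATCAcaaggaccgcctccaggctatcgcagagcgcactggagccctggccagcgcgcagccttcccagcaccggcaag
Jchain: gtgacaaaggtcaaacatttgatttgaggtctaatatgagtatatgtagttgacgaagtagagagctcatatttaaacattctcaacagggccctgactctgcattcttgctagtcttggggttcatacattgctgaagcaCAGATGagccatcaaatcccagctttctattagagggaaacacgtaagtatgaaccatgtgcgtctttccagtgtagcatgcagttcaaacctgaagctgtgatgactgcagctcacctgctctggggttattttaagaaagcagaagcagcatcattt
The capitals are matches to the GATA factor motif, AGATAA or TGATAA on either strand, in Bmp10, Myl7 and Kcnj2, and to the E-box CATCTG on the other strand in Jchain. Motifs were counted for the 20 highest and 20 lowest differences among genes whose groups do not overlap, with an unadjusted p under 0.05 and a mean at or above the dim limit in the higher group. Of the 20 highest 15 had a window in the RefSeq table, and of the 20 lowest 14. A gene counts where any of its windows holds the motif, and the shares beside are those of all genes of that table counted alike. The GATA motif was in 4 of the 15 (26.7%) and 1 of the 14 (7.14%), beside 21% of all genes. The T-box motif AGGTGT was in 4 of the 15 (26.7%) and 2 of the 14 (14.3%), beside 15.7% of all genes. The MEF2 motif, CTA and TAG with 4 bases between them, was in 0 of either set, beside 4.23% of all genes, and CATCTG was in 2 of the 15 (13.3%) and 3 of the 14 (21.4%), beside 19.2%. All motifs were searched on both strands, none of these motifs was tested, and a match is a run of letters and not a bound site.

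Beyond single genes, 136 families were formed from symbol patterns, and they hold 5557 measured genes. Of the 131 families with at least 5 members above the dim limit, 79 had a median difference below 0, 50 above and 2 at 0. The median over all 19505 genes was 0.01. No family reached a median of 0.5 upward, and 11 reached −0.5 or lower. Against Ctrl replicate 1 alone 19 of the 131 medians lay at least 0.5 from 0, and against Ctrl replicate 2 alone 3 did. Of the 131, 64 were lower against both controls and 24 higher against both. Over all named genes the sign alone was near even, with 50.8% of features with 1 symbol higher and 48.8% lower. The sign of the median held in all alternatives for 67 of the 136 families. Among families named below it turned in at least 1 alternative for the TGF-beta superfamily ligands (−0.11), secreted Wnt antagonists (−0.74 over members above the dim limit), potassium channel subunits (0.07), monocarboxylate transporters (0.18), aquaporins (0.11), GATA, MEF2, HAND and NK factors (−0.01), iron genes (0.02), orphan receptors (0.07), proteasome subunits (0.01), myosin heavy chains of muscle (−0.14), class I histocompatibility genes (0.02), angiopoietins (0.02), regulators of G protein signalling (0.05), ATP synthase subunits (−0.01) and mitochondrial ribosomal proteins (−0.02), and it reached 0.00 for complex I. Circadian clock genes had a median of −0.11, which was 0.53 without TTg replicate 1 and −0.75 without TTg replicate 2, so the TTg hearts lay on opposite sides of Ctrl.

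**Figure D3:**
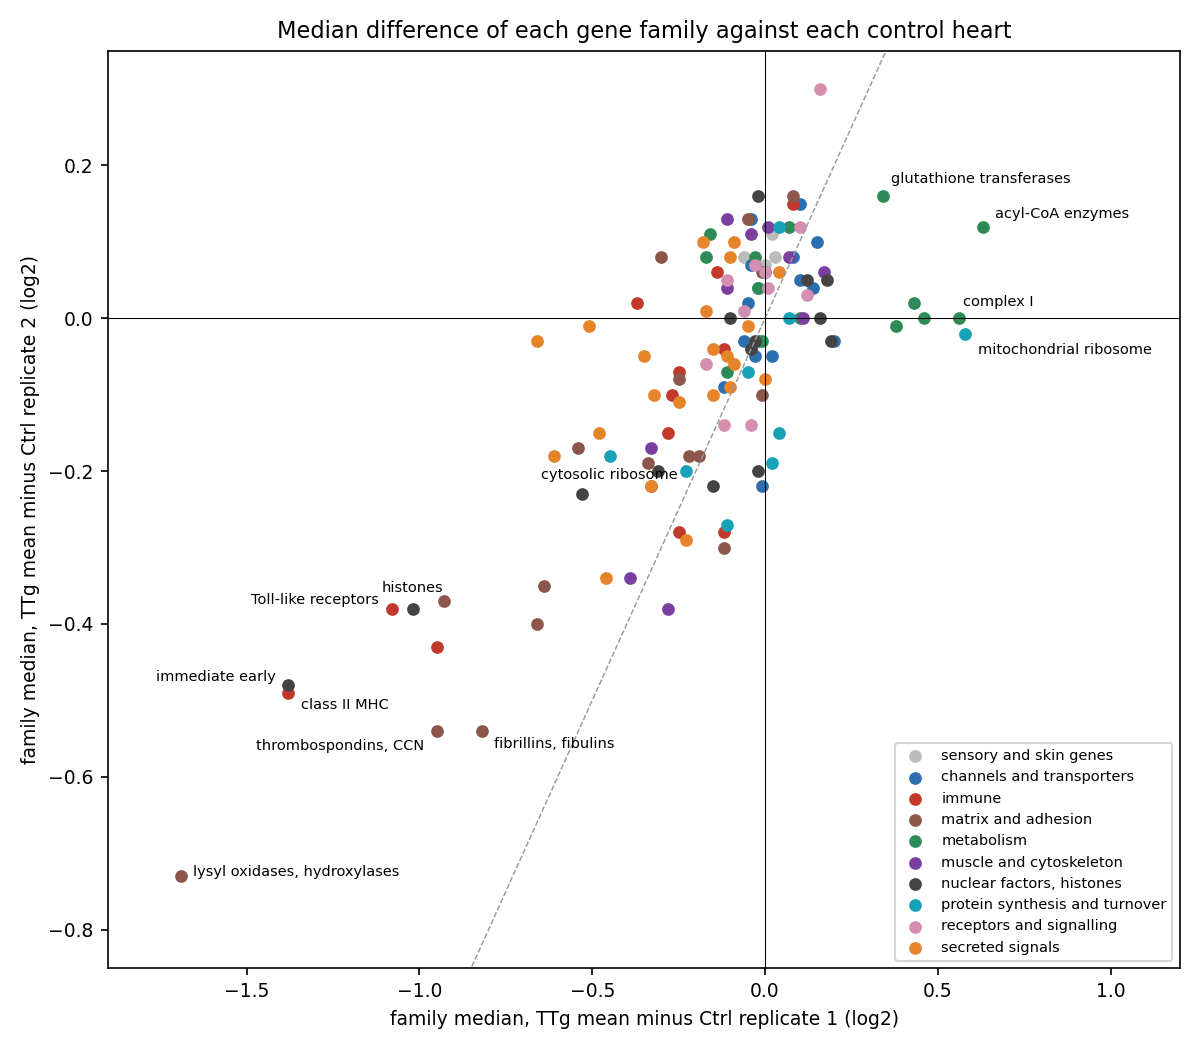
Each point is a gene family, with its median difference against Ctrl replicate 1 on the horizontal axis and against Ctrl replicate 2 on the vertical axis, both in log2 units. The dashed diagonal marks equal medians. Immediate early genes, class II histocompatibility genes and lysyl oxidases lie at the lower left, below 0 against both controls, while the families of complex I and mitochondrial ribosomal proteins lie at 0.56 and 0.58 against Ctrl replicate 1 and at 0.00 and −0.02 against Ctrl replicate 2.

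Families of the extracellular matrix were among the lowest by median. Lysyl oxidases and hydroxylases, which crosslink collagen, had a median of −1.27 over 6 members, with 4 lower and 2 higher, and their mean was 8.99 and 8.17 in Ctrl and 7.53 and 7.19 in TTg. Lox itself read 8.16 and 6.59 in Ctrl and 4.95 and 4.15 in TTg (−2.83). Thrombospondins, tenascins and CCN proteins, which adjust how cells hold the matrix, had a median of −0.85, and 9 of 15 lay below both controls without overlap, where 19.5% of all features with 1 symbol did and 19% lay above both. Comp was the lowest of them, at 12.02 and 8.80 in Ctrl and 6.99 and 4.06 in TTg (−4.88 ± 1.39). Fibrillins, fibulins and other microfibril proteins were at −0.67, with 16 of 20 lower, and small leucine-rich proteoglycans at −0.60, with 12 of 16 lower. In each of these 4 families the median lay below 0 against either control, between −0.95 and −0.37 for the thrombospondins, microfibril proteins and proteoglycans and at −1.69 and −0.73 for the lysyl oxidases.

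The collagens as a whole did not share the size of that difference. Their median was −0.12 over 42 genes, 26 lower and 16 higher. Without overlap 17 lay below both controls and 3 above both, beside 19.5% and 19% of all features with 1 symbol. Matrix metalloproteases were at −0.07 over 21, and at −0.62 over the 11 members above the dim limit. The 7 fibroblast markers were lower in TTg in 7 of 7, with a mean of 12.75 and 12.23 in Ctrl and 11.70 and 11.04 in TTg. Their median was −1.0, with 0 below the dim limit. Of the 7, 1 had an unadjusted p under 0.05, beside 4.29% of all features with 1 symbol in the lower direction. Dcn, Lum and Col15a1 among them are matrix genes, so the markers are not separate from the matrix families. The part of fibroblasts in the matrix results was not tested.

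Single matrix genes lay on the other side of their family. Emilin2, an elastin-associated glycoprotein, read 5.27 and 6.12 in Ctrl and 6.65 and 7.22 in TTg (1.24 ± 0.35), against the family median of −0.67. Adamts7, a protease that cuts Comp, read 5.53 and 6.08 in Ctrl and 6.79 and 7.73 in TTg (1.46 ± 0.36), while the 23 ADAMTS proteases and related proteins had a median of −0.24 and Adamtsl2 was at −2.23. Itgb6, the integrin beta chain that with alpha v activates latent transforming growth factor beta, read 8.54 and 9.36 in Ctrl and 10.75 and 9.96 in TTg (1.41 ± 0.37). Of the 25 integrin subunits 19 were lower, with a median of −0.39, led by Itgam (−1.43), Itga5 (−1.19) and Itgb5 (−1.19). Lgals4, a galectin best known from the gut lining, read 4.98 and 5.52 in Ctrl and 7.15 and 8.11 in TTg (2.38 ± 0.46), against a galectin median of −0.53 over 9. Anxa11 was at 0.74 ± 0.29 among 12 annexins with a median of −0.53, where Anxa1, Anxa3, Anxa4 and Anxa5 lay between −1.45 and −1.0. None of these genes overlapped between the groups, which the rule that named them required.

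Ligands and antagonists of signalling pathways were split within their families. Among ligands of the TGF-beta superfamily, whose median was 0.01, Bmp10 stood at the upper end while Tgfb2 was at 11.08 and 9.55 in Ctrl and 8.60 and 7.53 in TTg (−2.25 ± 0.56) and Tgfb3 at −1.71 ± 0.66. Secreted Wnt antagonists had a median of 0.02 over 14, but 3 of them lay far below it, with Sfrp2 at −3.88 ± 1.46, Sfrp1 at −3.45 ± 0.87 and Frzb at −2.81 ± 0.97. Sfrp2 read 14.12 and 10.88 in Ctrl and 10.31 and 6.93 in TTg, with the replicates of each group far apart. Fibroblast growth factors had a median of 0.15 over 21. Fgf6 lay below it at −1.77 ± 0.41 and Fgf18 at −1.06 ± 0.26, and Fgf9, which the epicardium and endocardium use to drive growth of the heart muscle, was at 0.81.

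Angpt1, the ligand that steadies blood vessels through the Tie2 receptor, read 9.19 and 10.59 in Ctrl and 12.44 and 11.68 in TTg (2.17 ± 0.48). The 8 angiopoietins and related proteins had a median of −0.18, which turned to 0.02 in an alternative, and Angptl7 was at −3.23 ± 1.10. The endothelial markers were split, 3 higher and 4 lower of 7, at 12.22 and 11.92 in Ctrl and 12.23 and 11.75 in TTg. Brakes on signalling gave a like pattern of lone genes above their family. Rgs2, which shortens signals of Gq-coupled receptors, read 6.73 and 7.94 in Ctrl and 8.25 and 9.13 in TTg (1.35 ± 0.48), with the 21 regulators of G protein signalling at a median of −0.17, up to 0.05 in an alternative. Socs6 was at 1.21 ± 0.48 against −0.32 over 15 suppressors of cytokine signalling, Sprouty and Spred proteins.

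Most genes of the immune families described here were lower in TTg. All 9 class II histocompatibility genes, which present antigen, were lower, with a median of −0.97 and means of 6.82 and 5.69 in Ctrl and 5.18 and 5.12 in TTg. H2-Aa was at −2.23. Complement components and receptors were lower in 22 of 28, with a median of −0.63 and C4b at −2.69, and Toll-like receptors in 10 of 12, with a median of −0.78 and Tlr8 at −1.52. Interferon-induced genes were lower in 38 of 45, with a median of −0.40. Against Ctrl replicate 2 alone these 4 medians were −0.49, −0.43, −0.38 and −0.18. Class I histocompatibility genes turned from −0.37 against Ctrl replicate 1 to 0.02 against Ctrl replicate 2. The 8 macrophage markers were lower in 8 of 8, with a mean of 9.76 and 8.46 in Ctrl and 8.11 and 7.77 in TTg and 0 below the dim limit. Of the 8, 3 had an unadjusted p under 0.05, beside 4.29% of all features with 1 symbol in the lower direction. C1qa and C1qb among them are complement genes, so the markers are not separate from the complement family. The part of macrophages in the immune results was not tested.

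CC chemokines lay on both sides. Ccl11, or eotaxin, which draws eosinophils, read 5.41 and 6.51 in Ctrl and 6.97 and 7.88 in TTg (1.47 ± 0.55). Ccl9 read 12.42 and 11.27 in Ctrl and 9.47 and 8.88 in TTg (−2.67), Ccl8 was at −2.00, Ccl6 at −1.55 and Ccl3 at −1.52. Over the 22 CC chemokines 15 were lower and 7 higher. Without overlap between the groups 8 were lower and 6 higher, beside 19.5% and 19% of all features with 1 symbol. The median was −0.24, and it was −0.51 against Ctrl replicate 1 and −0.01 against Ctrl replicate 2. Ccl9, Ccl6 and Ccl3 are neighbours on chromosome 11. Cd300ld, a receptor of myeloid cells, had little spread, at 8.71 and 8.15 in Ctrl and 6.44 and 6.27 in TTg (−2.08 ± 0.29, unadjusted p = 1.54e-04).

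Contractile genes were split in direction. Acta1, the skeletal alpha-actin that the fetal and the stressed heart express, read 18.57 and 19.30 in Ctrl and 16.72 and 12.78 in TTg (−4.18 ± 1.13). Acta2, the smooth muscle alpha-actin, read 12.82 and 13.69 in Ctrl and 14.67 and 14.62 in TTg (1.39 ± 0.59), although it is also known as a mark of activated fibroblasts. The cardiac actin Actc1 was at 0.03 and is near the top of the scale, where differences may be compressed. The 8 actins and actinins had a median of −0.33. The 9 markers of smooth muscle and pericytes, Acta2 among them, had means of 9.42 and 9.42 in Ctrl and 9.70 and 9.43 in TTg. Of these markers 5 were higher and 4 lower. The part of smooth muscle and pericytes in the Acta2 value was not tested.

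Myh7, the slow myosin heavy chain of the fetal and failing mouse heart, read 18.15 and 18.95 in Ctrl and 17.58 and 15.82 in TTg (−1.85 ± 0.57), against a median of 0.12 over 14 myosin heavy chains of muscle, which was −0.14 over the members above the dim limit. Myh6, the adult form, was at 0.25. Among the other contractile genes below both controls, the tropomyosins Tpm3 and Tpm4 were at −1.25 and −0.92, and the myosin light chains Myl6 and Myl12b at −1.02 and −1.01. Ankyrin repeat, Xin and PDZ-LIM proteins, which sense strain at the sarcomere and intercalated disc, were lower in 23 of 32 with a median of −0.36, and the median was −0.39 and −0.34 against the 2 controls. Synpo2l was at −2.33, Xirp2 at −2.21 and Ankrd1 at −1.62. For Acta1, Myh7 and Ankrd1 the lowest value was that of TTg replicate 2.

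**Figure D4:**
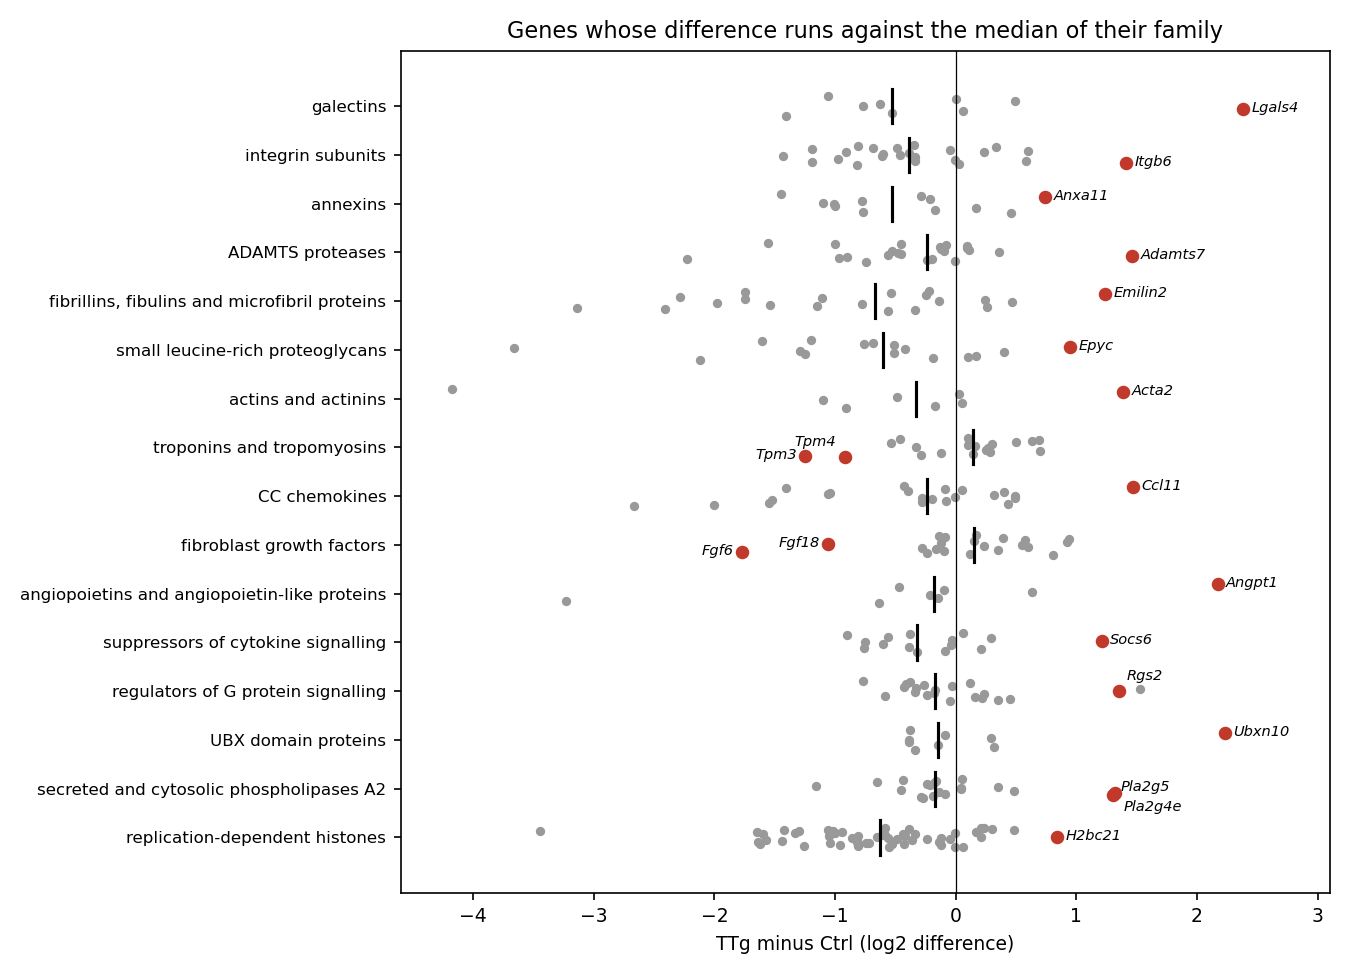
Differences between TTg and Ctrl (log2 units) are plotted for the members of chosen families, with each member as a point, the family median as a black bar and the genes that lie against their family in red. Lgals4, Itgb6, Adamts7 and Angpt1 lie above 0 in families with medians below 0, and Fgf6 and Tpm3 lie below 0 in families with medians above 0. The median turned to 0.05 for the regulators of G protein signalling and to 0.02 for the angiopoietins, and reached 0.00 for the troponins and tropomyosins, in at least 1 alternative.

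Genes set against their family were sought by a rule, in the 131 families with at least 5 members above the dim limit. A gene had to differ in sign from its family's median, lie at least 1 log2 unit from it, have groups that do not overlap and have an unadjusted p under 0.05. The rule gave 72 genes in 46 families, 41 higher and 31 lower. In 24 of them the family median itself lay at least 0.1 from 0, and 18 of these 24 were higher and 6 lower. A gene found by the rule has the sign opposite to its family median, and 79 of the 131 medians lay below 0 and 50 above. The split between higher and lower therefore follows in part from the rule. For comparison, 3.88% of features with 1 symbol above the dim limit had groups that do not overlap and an unadjusted p under 0.05 in the higher direction, and 5.66% in the lower. These shares carry no condition on the sign of a family median or on the distance from it. They also leave out dim features, which the rule admits, so they are not a like-for-like base.

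Among transporters some differences had a small spread. Slc16a7, the monocarboxylate transporter MCT2 that takes up lactate and pyruvate, read 6.38 and 6.83 in Ctrl and 8.42 and 9.0 in TTg (2.10 ± 0.30, unadjusted p = 2.08e-04). Slc16a10 was at 1.32, while Slc16a3, the MCT4 transporter that exports lactate from glycolytic cells, was at 7.02 and 5.95 in Ctrl and 5.48 and 5.20 in TTg (−1.15). The 13 members of the family were split 6 higher to 7 lower, with a median of −0.09. Aquaporins were split as well. Aqp4 was at 1.81 ± 0.61 and Aqp8 read 7.73 and 7.36 in Ctrl and 5.49 and 5.55 in TTg (−2.02 ± 0.27, unadjusted p = 0.000112), with 6 of 12 on each side of 0.

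The 27 iron and metallothionein genes were split, 13 higher and 14 lower. Hamp, which encodes hepcidin, the hormone that closes the iron exporter, read 6.99 and 5.29 in Ctrl and 8.84 and 7.92 in TTg (2.24 ± 0.57). Its neighbour and close copy Hamp2 was at 1.03 ± 0.42, and signal shared between near-identical copies makes either value uncertain. Slc40a1, the exporter ferroportin, read 7.19 and 7.22 in Ctrl and 8.42 and 8.36 in TTg (1.19 ± 0.25). Hjv, the BMP co-receptor hemojuvelin, was at 1.55 ± 0.53, and Tfrc, the transferrin receptor, at 1.41 ± 0.56. Ftl1, the ferritin light chain that stores iron, lay the other way, at 14.85 and 13.91 in Ctrl and 12.40 and 12.68 in TTg (−1.84). Of the 27 genes 6 were higher and 4 lower at an unadjusted p under 0.05, beside 7.54% of all features with 1 symbol in either direction, while the median was −0.02.

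Energy families were higher mainly against 1 of the 2 control hearts. Subunits and assembly factors of complex I were higher in 38 of 45, with a median of 0.29. They were higher against Ctrl replicate 1 in 43 and against Ctrl replicate 2 in 22, and the mean was 12.91 and 13.50 in Ctrl and 13.45 and 13.59 in TTg. Mitochondrial ribosomal proteins were higher in 64 of 76, and in 69 and 37 against either control, with means of 8.81 and 9.38 in Ctrl and 9.39 and 9.34 in TTg. ATP synthase subunits had medians of 0.38 and −0.01 against the 2 controls. Without overlap between the groups, 13 of 45 complex I genes and 26 of 76 mitochondrial ribosomal proteins were higher, beside 19% of all features with 1 symbol. Ndufs7 read 15.01 and 15.06 in Ctrl and 15.93 and 16.08 in TTg (0.97 ± 0.22), and Mrpl28 read 6.93 and 7.43 in Ctrl and 8.47 and 8.16 in TTg (1.14).

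Enzymes of acyl-CoA metabolism and detoxification kept their sign against both controls. Acyl-CoA dehydrogenases, thioesterases, synthetases and related enzymes were higher in 41 of 50, with a median of 0.37 that was 0.63 and 0.12 against the 2 controls. Acad11 was at 1.18, Acot3 at 0.97 and Cpt1a, which admits long-chain fatty acids to the mitochondrion, at 0.95. Glutathione transferases were higher in 17 of 25, with a median of 0.23, which was 0.34 and 0.16 against the 2 controls and 0.05 without TTg replicate 2. Gstk1, the form of mitochondria and peroxisomes, read 11.89 and 13.08 in Ctrl and 13.81 and 13.86 in TTg (1.35). Aldh4a1 and Aldh5a1, mitochondrial dehydrogenases of proline and GABA breakdown, were at 1.31 and 1.11.

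Receptors coupled to G proteins were split gene by gene. P2ry1, a receptor for ADP, read 6.15 and 7.80 in Ctrl and 9.09 and 8.30 in TTg (1.72 ± 0.55), while P2ry2, a receptor for ATP and UTP, read 11.04 and 11.09 in Ctrl and 9.64 and 10.27 in TTg (−1.11). Among 67 orphan receptors with Gpr symbols 32 were higher and 35 lower. Gpr65, a proton sensor of immune cells, was the widest of them, at 6.99 and 5.71 in Ctrl and 4.20 and 4.52 in TTg (−1.99), and Gpr158, Gpr75 and Gpr157 were at 1.95, 1.75 and 1.28. No direction was shared by the family, whose median was −0.03. Pla2g4e and Pla2g5, phospholipases that free fatty acids from membrane lipids, were at 1.32 and 1.30 among 20 phospholipases A2 with a median of −0.17.

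Rab GTPases, which direct vesicles between compartments, had a median of 0.04 over 55, and 7 of them were lower and 1 higher at an unadjusted p under 0.05, beside 4.29% and 3.24% of all features with 1 symbol. Rab7b, a GTPase of late endosomes in myeloid cells, read 8.33 and 8.03 in Ctrl and 6.92 and 6.56 in TTg (−1.44 ± 0.25), and Rab31 and Rab33b were at −1.31 and −0.97. Krt80, a keratin, read 5.72 and 5.97 in Ctrl and 4.39 and 3.98 in TTg (−1.66 ± 0.28). Kif5b, the widely expressed heavy chain of kinesin, was at −1.06 ± 0.25. Each of these 5 genes was below both controls in both TTg hearts, which the rule that named them required.

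Genes among the highest also included some with no common role. Lrrc4b, a synaptic adhesion protein, read 5.03 and 7.02 in Ctrl and 8.58 and 8.87 in TTg (2.70 ± 0.63). Ubxn10, a UBX domain protein of cilia, read 4.36 and 5.83 in Ctrl and 7.35 and 7.30 in TTg (2.23 ± 0.50), against a family median of −0.15 over 9. Phkg1, the muscle catalytic subunit of phosphorylase kinase, read 6.70 and 8.14 in Ctrl and 9.55 and 9.29 in TTg (2.0 ± 0.56). In all 3 genes Ctrl replicate 1 was the lowest heart, and the TTg hearts were closer to each other than the Ctrl hearts were.

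Immediate early genes, which cells switch on within minutes of a stimulus, were lower in 26 of 26. Their median was −0.88, and −1.38 and −0.48 against the 2 controls, with means of 8.21 and 7.15 in Ctrl and 6.42 and 6.70 in TTg. Nr4a3, named after its values were seen, was the lowest at −3.53, but TTg replicate 2 at 10.97 was within the range of Ctrl, at 12.66 and 10.92. Among members without overlap Atf3 was at −2.75, Nr4a1 at −2.48 and Btg2 at −2.27. Of the 26 genes 10 were lower at an unadjusted p under 0.05, beside 4.29% of all features with 1 symbol. Such genes also respond to handling of tissue at harvest, which the labels used here do not describe, and its part was not tested.

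Replication-dependent histones were lower in 48 of 56, with a median of −0.63. They were lower in 47 and 41 of 56 against the 2 controls, and H2ac15 was the lowest, at 9.17 and 6.37 in Ctrl and 4.79 and 3.85 in TTg (−3.45 ± 0.94). H2bc21 lay against them at 0.84 ± 0.27, from 5.08 and 4.65 in Ctrl to 5.56 and 5.85 in TTg. Histone genes are close copies of each other, so signal between members cannot be split with certainty. Cyclins and their kinases and inhibitors, which run the cell cycle, were at a median of −0.14 over 42, with Cdkn1a, the p21 inhibitor, at 12.69 and 12.25 in Ctrl and 10.65 and 8.47 in TTg (−2.91 ± 0.63).

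Cytosolic ribosomal proteins were lower in 55 of 64, and in 35 without overlap between the groups, beside 19.5% of all features with 1 symbol, with a median of −0.31 and medians of −0.45 and −0.18 against the 2 controls. Rpl10a was at −1.08, Rps19 at −0.97 and Rps28 at −0.90. Proteasome subunits had a median of −0.09 over 47, with Psmb8 and Psmb10, which replace standard subunits in the immunoproteasome, at −1.36 and −0.90.

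Neighbouring genes shared their direction in 1 long stretch. Stretches were sought as neighbouring genes that each had an unadjusted p under 0.05 in the same direction. On chromosome 2, 18 genes in a row of a zinc finger cluster from Gm14393 to Zfp931 were higher, by 0.78 to 2.10. In none of the 18 did the groups overlap, which follows in large part from that limit on p. Their mean was 13.77 and 14.37 in Ctrl and 15.11 and 15.35 in TTg, and Gm14403 was the widest, at 12.96 and 14.08 in Ctrl and 15.27 and 15.97 in TTg. These genes are near-identical copies, so 1 source of signal can be read by many features, and the values are uncertain as separate measurements. The 358 genes with Zfp symbols had a median of 0.09. Olfactory receptors, the largest family with 1091 genes, served as a family with little expression in the heart. They had a median of 0.04 with 254 above the dim limit. Of the 1091, 17 were higher and 8 lower at an unadjusted p under 0.05, beside 3.24% and 4.29% of all features with 1 symbol.

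Other genes among the lowest of the comparison act in separate processes. Resf1, which aids silencing of retroelements, read 13.88 and 12.78 in Ctrl and 9.24 and 9.93 in TTg (−3.75 ± 0.51). Gabra3, a subunit of the GABA-A receptor, read 6.78 and 6.34 in Ctrl and 3.04 and 3.81 in TTg (−3.13 ± 0.57). Pde7b, a phosphodiesterase that breaks down cyclic AMP, read 10.94 and 14.85 in Ctrl and 9.43 and 9.48 in TTg (−3.44 ± 1.06), and it ranged from −5.39 to −1.49 over the alternatives because the 2 Ctrl hearts were far apart. Irs2, an adaptor of the insulin receptor, was at −2.94 ± 0.67, and Meox1, a homeobox gene of activated fibroblasts, at −3.08 ± 0.89. In all 5 genes both TTg hearts lay below both Ctrl hearts, which the rule that named them required.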

How the data were processed

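Heart RNA was measured on Clariom S mouse arrays, with 100 ng of RNA of an integrity number above 7.0 per array, per the labels. The values deposited by the authors are log2 signals per feature. The submitters' processing notes name Transcriptome Analysis Console 4.0, while the summary and normalization method and the genome build are not given in the sources used here. The values were used as deposited.

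A model with 1 mean per group was fitted to all 6 arrays with limma 3.58.1 in R 4.3.3 (3 residual and 4.13 prior degrees of freedom), two-sided, with Benjamini-Hochberg adjustment over 22206 features and a threshold of 0.05. An exact permutation test of 2 against 2 arrays gives no p below 0.333. The hearts of a group are independent replicates, per the series design. Their number limits the precision of every value. Counts and medians were computed with Python 3.11.15 and pandas 2.3.3, with 1 feature per symbol. The pipeline was tested on simulated data.

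The members, families, markers and the rule for named genes were chosen with earlier results of these data known. The rule names the 4 factors, passing features, the 20 highest and 20 lowest differences among 1-symbol features whose groups do not overlap, with an unadjusted p under 0.05 and a mean at or above the dim limit in the higher group, up to 4 members per family past the same overlap and p limits (or up to 2 where there is none), genes against their family, and markers. Kcnj5, Nr4a3 and the chromosome 2 stretch were chosen after their values were seen. Alternatives were the 4 arrays alone, an intensity trend or robust prior, quantile normalization, median centring, no dim features, 1-symbol features, a replicate block, leaving out each array, and an unadjusted p with a 2-fold minimum. A group left with 1 array takes its spread from the remaining groups. Replicate numbers were not treated as pairing.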

Additional observations from a re-analysis of the deposited data

How the results depend on the processing

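Of 511 genes that the naming rule gave, 446 kept their direction in each alternative that gave a difference, over up to 14, and 13 passed the threshold in at least 1. Among those named in the text, Gata4 (−0.05 to 0.57) and Actc1 (−0.06 to 0.07) did not keep it. Nor did the atrial markers Myl4 (−0.70 to 9.48), Sln (−0.24 to 8.02) and Dkk3 (−2.82 to 0.80). The count of features past the adjusted threshold was 1 and moved as follows. It was 2 with the 4 arrays alone (Jchain and Bmp10), 11 with a replicate block (Jchain, Comp, Ccn5, Sfrp1, Sfrp2, Frzb, Meox1, Ccl9, Mfap5, Mmp3 and Olfml3) and 666 when an unadjusted p with a 2-fold minimum replaced the adjusted p. Leaving out 1 array gave 0 to 2. It was 0 without Ctrl replicate 2 or either TTg array, and 2 without Ctrl replicate 1 (Pde7b and Myl7). The counts at an unadjusted p under 0.05 and at least 1 log2 unit ranged from 147 to 648 (higher) and from 203 to 921 (lower) when 1 array was left out, and stayed within 1.5 times elsewhere. Same-numbered replicates deviated together at correlations of 0.133, 0.136 and 0.12, but with 2 numbers per group this does not establish pairing. Values near the top of the scale may be compressed, and differences of dim features depend on the background.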
